A study of Mus musculus with 46 samples.

Results

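Agouti-related peptide (AgRP) neurons of the arcuate nucleus promote feeding, and leptin, a hormone secreted by adipose tissue, restrains them. The 7 genes described here, Fga, Steap4, Serpina3i, Serpina3n, Slc10a6, Sbno2 and Etv6, are 7 of the 31854 genes in the count table of this series. They were chosen by name for their rise in AgRP neurons of leptin-treated mice against fasted mice, so their values in that comparison are a description and carry no test. The measures that the choice did not use are the RNA of POMC neurons, the comparison of AgRP with POMC neurons in fed mice, the chromatin accessibility around the genes, their promoter sequences and the IRF3 peaks near them. Within 100 kb of their start sites lay 100 of the 123721 peaks of open chromatin called in AgRP nuclei of the 3 states, and 57 of the 67472 peaks called in sorted nuclei.

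RNA came from NuTRAP mice on a C57BL/6J background, aged 6 to 11 weeks, in which Cre recombinase switches on a GFP-tagged ribosomal subunit and a tagged nuclear membrane protein. Cre was driven from the Agrp locus (AgRP-IRES-Cre, NuTRAP AgRP) or from the Pomc locus (POMC-IRES-Cre, NuTRAP Pomc). Every RNA and ATAC-seq library used here came from mice with these tags. Fed mice ate ad libitum, fasted mice went without food for 18 to 20 h, and leptin mice were fasted for as long and then injected with 5 mg/kg leptin into the peritoneum. The study's methods describe the mice as male, injected with vehicle where they did not get leptin, and killed 3 h after the injection. Each RNA sample pooled 4 arcuate nuclei, and tagged ribosomes were pulled down before sequencing (TRAP), so the values are ribosome-bound RNA and include what other cells leave on the beads. The AgRP RNA had 3 fed, 4 fasted and 4 leptin libraries, the POMC RNA had 2 libraries per state, and ATAC-seq of sorted AgRP nuclei had 2 libraries per state. A second ATAC-seq set compared 2 libraries of AgRP-positive with 2 of AgRP-negative nuclei. CUT&RUN for the transcription factor IRF3 was a single sample from AgRP nuclei of mice that express IRF3-2D, a constitutively active form of IRF3.

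The leptin receptor is a cytokine receptor of the gp130 type. Its ligand activates the kinase JAK2 and the transcription factor STAT3, and SOCS3 feeds back on this signaling. Interleukin-6 also acts through STAT3 when it turns on acute-phase genes in the liver. Acute-phase genes encode plasma proteins that the liver secretes in inflammation, among them the fibrinogen chains and the serine protease inhibitors of the Serpina3 cluster. Of the members, Fga encodes the alpha chain of fibrinogen and Serpina3i and Serpina3n encode secreted inhibitors of serine proteases. Steap4 encodes a membrane metalloreductase that reduces iron and copper, and Slc10a6 a sodium-dependent carrier of sulfated steroids. Sbno2 encodes a transcriptional coregulator induced by cytokines that act through STAT3, and Etv6 an ETS-family transcriptional repressor.

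STAT dimers bind palindromes of the form TTCNNNGAA, and RefSeq promoters of 300 bases (250 before the start and 50 after it, build GRCm38.p6) were searched for them on both strands. Fga (chr3:83025903-83026202, plus strand), Steap4 (chr5:7960222-7960521, plus strand) and Slc10a6 (chr5:103629354-103629653, minus strand) are shown whole because they had the lowest fasted levels of the 7 genes. The match is in capitals, and Slc10a6 had none.
Fga: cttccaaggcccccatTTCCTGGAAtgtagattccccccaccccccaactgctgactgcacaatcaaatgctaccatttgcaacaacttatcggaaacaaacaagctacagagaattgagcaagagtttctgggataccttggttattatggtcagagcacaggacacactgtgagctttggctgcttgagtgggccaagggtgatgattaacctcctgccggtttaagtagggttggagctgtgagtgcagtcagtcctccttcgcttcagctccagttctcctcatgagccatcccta
Steap4: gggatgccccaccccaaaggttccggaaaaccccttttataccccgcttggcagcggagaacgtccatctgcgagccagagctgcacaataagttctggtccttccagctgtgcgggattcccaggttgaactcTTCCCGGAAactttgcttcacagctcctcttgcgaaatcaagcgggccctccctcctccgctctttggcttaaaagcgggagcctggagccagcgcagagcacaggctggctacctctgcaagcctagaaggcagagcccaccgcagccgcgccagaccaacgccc
Slc10a6: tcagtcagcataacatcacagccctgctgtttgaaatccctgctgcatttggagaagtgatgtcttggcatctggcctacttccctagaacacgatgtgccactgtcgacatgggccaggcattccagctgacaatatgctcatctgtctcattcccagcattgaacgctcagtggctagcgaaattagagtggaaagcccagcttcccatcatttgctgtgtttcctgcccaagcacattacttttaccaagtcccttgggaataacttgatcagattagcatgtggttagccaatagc
The match began 234 bases before the RefSeq start of Fga and 116 bases before that of Steap4. In both it also satisfied the stricter form TTCCNGGAA, whose matches are a subset of the first.

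The remaining promoters with a match are shown as the stretch around it, for the same comparison of letters. Sbno2 has 3 RefSeq promoters, of which 2 held a match (chr10:80101173-80101241 and chr10:80102690-80102758, minus strand). The stretch of Serpina3i is chr12:104262990-104263058 and that of Etv6 chr6:134035711-134035739, both on the plus strand.
Sbno2, first stretch: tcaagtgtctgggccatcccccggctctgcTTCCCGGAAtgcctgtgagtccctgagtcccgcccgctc
Sbno2, second stretch: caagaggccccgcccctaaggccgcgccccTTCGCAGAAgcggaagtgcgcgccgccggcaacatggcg
Serpina3i: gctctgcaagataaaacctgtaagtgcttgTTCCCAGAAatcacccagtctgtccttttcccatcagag
Etv6: agtttctctcTTCCAGGAAggaaaacatt
The matches began 24 and 26 bases before the starts of Sbno2, 102 bases before that of Serpina3i and 21 bases after that of Etv6. In all, 5 of the 7 members (all but Serpina3n and Slc10a6) and 6 of their 9 promoters held TTCNNNGAA, as 8.3% of all 32851 promoters did. The stricter TTCCNGGAA was present for 4 members, Fga, Steap4, Sbno2 and Etv6, and in 1.15% of all promoters. The other motifs were less frequent among the members: the IRF-type GAAANNGAA for 2 members (Sbno2 and Etv6, 8.56% of all promoters), the C/EBP-type TTGCNNAA for 2 (Fga and Steap4, 10.8%) and the AP-1-type TGANTCA for none (7.81%). These are matches of letters in a fixed window, not measured binding.

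Levels are in CPM, reads scaled to the size of each library, after normalisation by the TMM method. Between 25581041 and 54511107 reads per library were counted on genes in the AgRP RNA and between 30704075 and 53217053 in the POMC RNA, and ATAC-seq libraries held 8263234 to 17190963 reads in peaks. A gene or peak with a mean over 1 CPM entered edgeR's quasi-likelihood test. It was called when its p adjusted by Benjamini-Hochberg over all features tested (FDR) was under 0.05 and its log2 fold change exceeded 0.5 in size. All 7 members passed the filter in the AgRP RNA, but Fga, Steap4 and Slc10a6 stayed under 1 CPM in every fed and fasted library and passed only through their leptin libraries. The labelled cell types held in fed mice, where 6 of 7 AgRP neuron markers were called higher in AgRP libraries and 5 of 5 POMC neuron markers in POMC libraries. The libraries numbered 4 of the AgRP RNA stood apart in Slc1a2, an astrocyte glutamate transporter, at 20620 to 27235 CPM against 2381 to 3856 CPM in the other AgRP libraries. POMC libraries numbered 2 stood apart likewise, at 22467 to 25898 against 5026 to 6034 CPM. Each state holds 1 such AgRP library, and results are given with and without these where they differ.

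Fga (chr3:83026076-83033627, plus strand) went from near 0 in fed and fasted AgRP neurons to one of the largest rises after leptin. It stood at 0.0539, 0.200 and 0.0417 CPM in the 3 fed libraries, or 2, 8 and 1 counts. The 4 fasted libraries held 0.814, 0.537, 0.392 and 0.475 CPM, and the 4 leptin libraries 28.1, 20.7, 62.1 and 11.9 CPM. No leptin library came near a fasted one, while the leptin libraries differed widely among themselves, at 30.7 ± 22 CPM (mean ± SD, n = 4). The fitted log2 fold change of leptin against fasted was 5.80 (SE 0.548), or 55.7-fold, which ranked 1 of the 160 genes called higher. Steap4 ranked 2, within the SE, and with DESeq2 the order of Fga and Steap4 was swapped (5.81 and 5.83).

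Steap4 (chr5:7960457-7982213, plus strand) had a rise of nearly the same size. Its fed libraries held 0.404, 0.276 and 0.125 CPM and its fasted libraries 0.241, 0.378, 0.196 and 0.0365 CPM. Its leptin libraries held 18.5, 8.57, 17.4 and 5.57 CPM. The lowest leptin library was the one numbered 4, as for Fga, and the fitted rise was 5.75 on the log2 scale (SE 0.534), or 54.0-fold. Slc10a6 (chr5:103605711-103629403, minus strand), the third member under 1 CPM before leptin, rose from 0.392, 0.258, 0.392 and 0.621 CPM in fasted to 6.35, 3.83, 6.30 and 3.78 CPM in leptin libraries. In fed libraries it stood at 0.0808, 0.376 and 0.209 CPM, and its log2 fold change of leptin against fasted was 3.65 (SE 0.350, rank 5 of 160).

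Serpina3i and Serpina3n lie in the Serpina3 cluster of chromosome 12 (chr12:104263122-104269372 and chr12:104406729-104414329, plus strand) and were expressed before leptin. Serpina3i held 6.75, 4.53, 4.79 and 6.32 CPM in fasted libraries and 34.1, 31.8, 42.0 and 29.4 CPM in leptin libraries. Its fed libraries, at 9.27, 11.8 and 7.05 CPM, all lay above the fasted ones and below the leptin ones. Its log2 fold change of leptin against fasted was 2.62 (SE 0.194, rank 11 of 160). Serpina3n was by far the most abundant member, at 621, 623, 693 and 633 CPM in fasted and 945, 1286, 2217 and 995 CPM in leptin libraries. The fed libraries of Serpina3n held 567, 630 and 529 CPM. It rose 2.12-fold, a log2 fold change of 1.08 (SE 0.240, rank 68 of 160), the smallest among the members. Counts of the Serpina3 genes are uncertain, since these near-identical paralogs share reads that the counting can split.

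Sbno2 (chr10:80056992-80105571, minus strand) and Etv6 (chr6:134035700-134270158, plus strand), are the nuclear regulators. Their leptin libraries varied little, at 75.2 ± 8.28 and 37.2 ± 4.35 CPM (mean ± SD, n = 4). Sbno2 held 13.8, 14, 12.8 and 15.3 CPM in fasted and 79.3, 65.9, 84.4 and 71.2 CPM in leptin libraries. Its fed libraries stood between these, at 20.9, 25.9 and 17.9 CPM, and its log2 fold change of leptin against fasted was 2.43 (SE 0.125, rank 15 of 160). Etv6 held 13.6, 12.1, 11.4 and 16.3 CPM in fasted and 43.5, 34.5, 34.1 and 36.5 CPM in leptin libraries. The fed libraries of Etv6, at 15.1, 12.3 and 16.1 CPM, overlapped the fasted ones, and its log2 fold change of leptin against fasted was 1.48 (SE 0.136, rank 40 of 160).

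**Figure D1:**
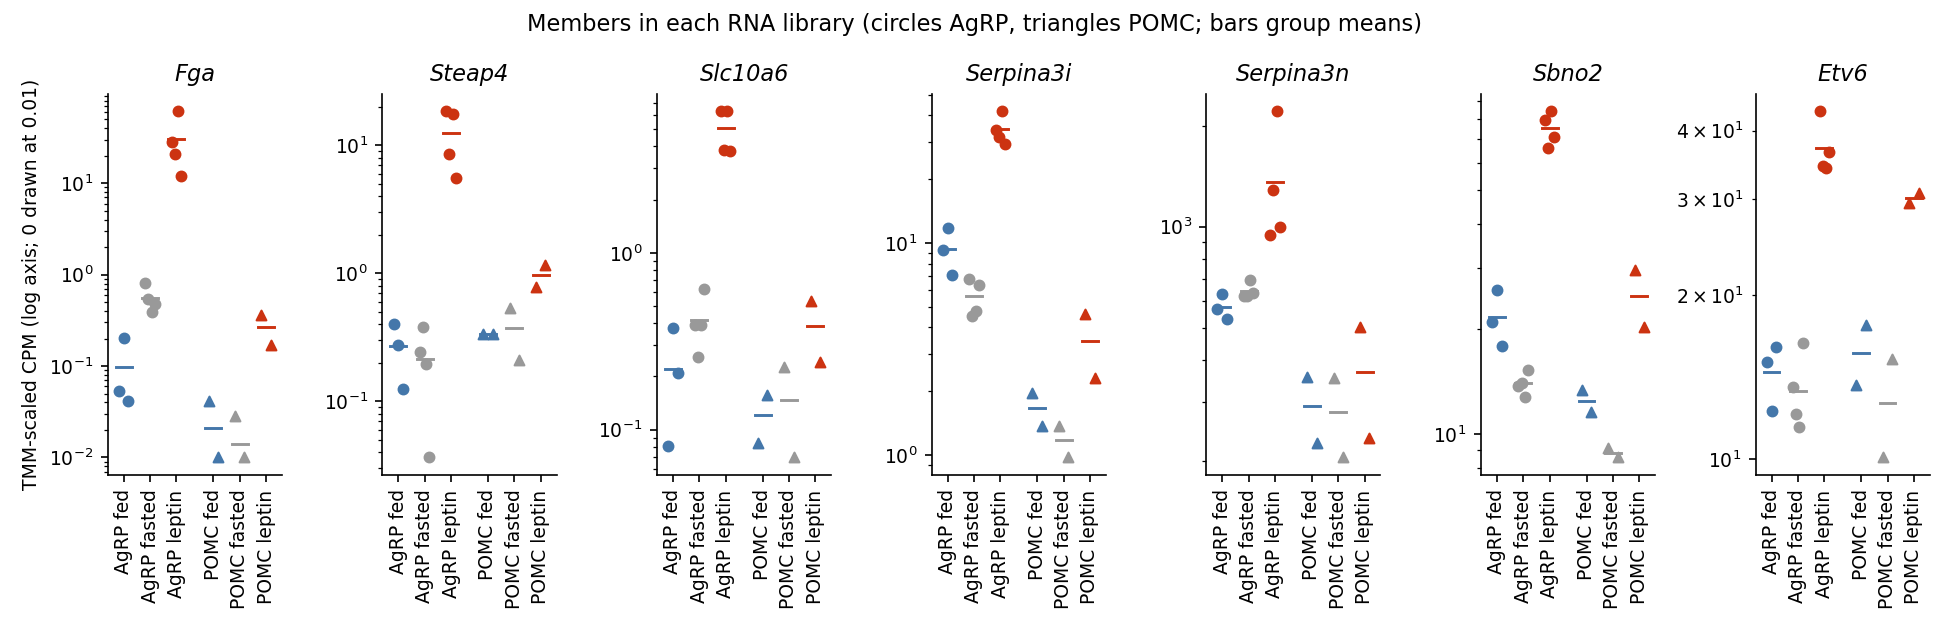
TMM-scaled CPM (log axis, 0 drawn at 0.01) of the 7 members in every fed, fasted and leptin library of AgRP neurons (circles) and POMC neurons (triangles), with bars at group means. The 4 AgRP leptin libraries lie above all fed and fasted AgRP libraries for every member, from 28.1, 20.7, 62.1 and 11.9 CPM for Fga to 945 CPM or more for Serpina3n, and the POMC leptin libraries overlap the fasted ones for Serpina3n alone.

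The label that these genes were switched on holds for Fga, Steap4 and Slc10a6, which left levels under 1 CPM, while the other 4 members rose from levels at which they were plainly expressed. Divided by the summed exon length, the leptin levels ran from 653 ± 283 CPM per kb for Serpina3n through 15.6 ± 2.49 for Serpina3i, 9.75 ± 1.07 for Sbno2, 9.14 ± 6.54 for Fga, 6.52 ± 0.764 for Etv6 and 3.99 ± 2.05 for Steap4 to 2.38 ± 0.686 for Slc10a6 (mean ± SD, n = 4). Fga did not differ from its neighbours Sbno2 and Etv6 beyond that spread, nor did Steap4 from Slc10a6. In fasted libraries the order was Serpina3n at 308 ± 16.4 CPM per kb, Serpina3i at 2.55 ± 0.503, Etv6 at 2.35 ± 0.381, Sbno2 at 1.81 ± 0.131, Slc10a6 at 0.196 ± 0.0709, Fga at 0.165 ± 0.0545 and Steap4 at 0.0678 ± 0.0448 (n = 4).

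By the threshold, 7 of 7 members were called higher and none lower in leptin than in fasted AgRP libraries, where 1.19% of the 13401 genes tested were called higher and 0.634% lower. The choice of members used this contrast, so nothing is read from that count. For 7 of 7 members every leptin library exceeded every fasted library, as for 3.24% of all genes tested. The call of Serpina3n was the least secure: it was lost without fasted replicate 1, 2, 3 or 4 (log2 fold changes of 1.07, 1.07, 1.13 and 1.08), without leptin replicate 2 (1.11), and with scaling by library size alone (1.08), all at nearly the same fold change. With each of the 8 libraries left out in turn, the log2 fold change of Serpina3n ranged from 0.742 to 1.22. Without the libraries numbered 4 all 7 remained called. Fewer cells of a type and less RNA per cell cannot be told apart in such bulk RNA.

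Markers of other cell types were examined beside the members. None of the 12 astrocyte, 12 endothelial, 7 pericyte and mural, 7 microglial, 9 oligodendrocyte and 7 tanycyte and ependymal markers tested was called in leptin against fasted AgRP libraries, and no marker was at 0 throughout. In leptin against fed libraries 1 of them, the tanycyte marker Vim, was called higher (0.66, FDR 0.0289). Of genes known from reactive astrocytes, listed without the members, Timp1 was called higher in leptin against fasted (2.76). In leptin against fed, Timp1 and Vim were called higher (3.67 and 0.66). The summed endothelial markers ranged from 95.2 to 211 CPM in fasted and from 138 to 173 CPM in leptin libraries, and the pericyte and mural markers from 69.0 to 91.2 and from 77.0 to 109 CPM. The summed microglial markers spanned 22.9 to 48.0 CPM in fasted and 25.9 to 46.0 CPM in leptin libraries. The astrocyte sum, dominated by Slc1a2, ranged from 3093 to 28694 CPM in fasted and from 3449 to 28098 CPM in leptin libraries. The part that RNA of such cells plays in the members' levels was not tested.

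Without a block, fasting moved 1 of the 7 members past the threshold. With the replicate number as a block 1 member was called higher and 2 lower, as were 590 and 340 of the 13401 genes tested. The comparison of fasted with fed mice shares the fasted libraries with the contrast that chose the genes. That choice favours low fasted values, so falls of members from fed to fasted are a description with no p. Sbno2 was called lower in fasted than in fed AgRP libraries, with a log2 fold change of -0.63 (SE 0.129). Without the block it was the only 1 of 7 members called lower, against 1.07% of all genes. No member was called higher there, against 2.82% of all genes. Over all genes these were 378 higher and 143 lower, and 148 and 90 with scaling by library size alone. The call of Sbno2 was lost without fasted replicate 1 (-0.62), fasted replicate 3 (-0.61), fed replicate 1 (-0.65) or fed replicate 3 (-0.48), and with scaling by library size alone (-0.69). Serpina3i had a log2 fold change of -0.75 (SE 0.199) and was not called. It passed with the replicate number as a block (-0.72) and with DESeq2 (-0.77). It also passed without fasted replicate 4 (-0.81), without fed replicate 4 (-0.94) and without all libraries numbered 4 (-1.0). For both genes every fasted library lay below every fed library, as for 6.69% of all genes tested.

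Fga pointed the other way. Its fasted libraries all lay above its fed ones, as for 11.6% of all genes. Its log2 fold change of 2.32 (SE 0.837) was not called. With the replicate block (2.51) and with DESeq2 (2.40) Fga was called, on summed counts of 85 in fasted and 11 in fed libraries. Fga, Steap4 and Slc10a6 passed the filter only through their leptin libraries, so no FDR is given for them here. The remaining members were not called: Slc10a6 had a log2 fold change of 0.82, Serpina3n 0.16 (FDR 0.821), Etv6 -0.11 and Steap4 -0.30.

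The comparison of leptin with fed mice shares the leptin libraries that chose the genes, and Fga, Steap4 and Slc10a6 passed the filter only through those, so it is given as a description with no p. In it 7 of 7 members were called higher, where 3.73% of all genes tested were, and none lower, where 1.75% were, and nothing is read from that count. Fga had a log2 fold change of 8.12 (SE 0.757), which rests on 11 counts in the 3 fed libraries. Steap4 followed at 5.46 (SE 0.599) and Slc10a6 at 4.47 (SE 0.433). These exceed the remaining members, which were expressed in fed mice. Serpina3i had a log2 fold change of 1.87 (SE 0.208), Sbno2 1.80 (SE 0.136), Etv6 1.36 (SE 0.149) and Serpina3n 1.24 (SE 0.265). Serpina3n again lost its call without fed replicate 1 (1.23), 3 (1.31) or 4 (1.17). For 7 of 7 members every leptin library exceeded every fed library, as for 12.3% of all genes. Serpina3i and Sbno2, whose fasted libraries lay below the fed ones, thus stood above their fed levels after leptin.

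**Figure D2:**
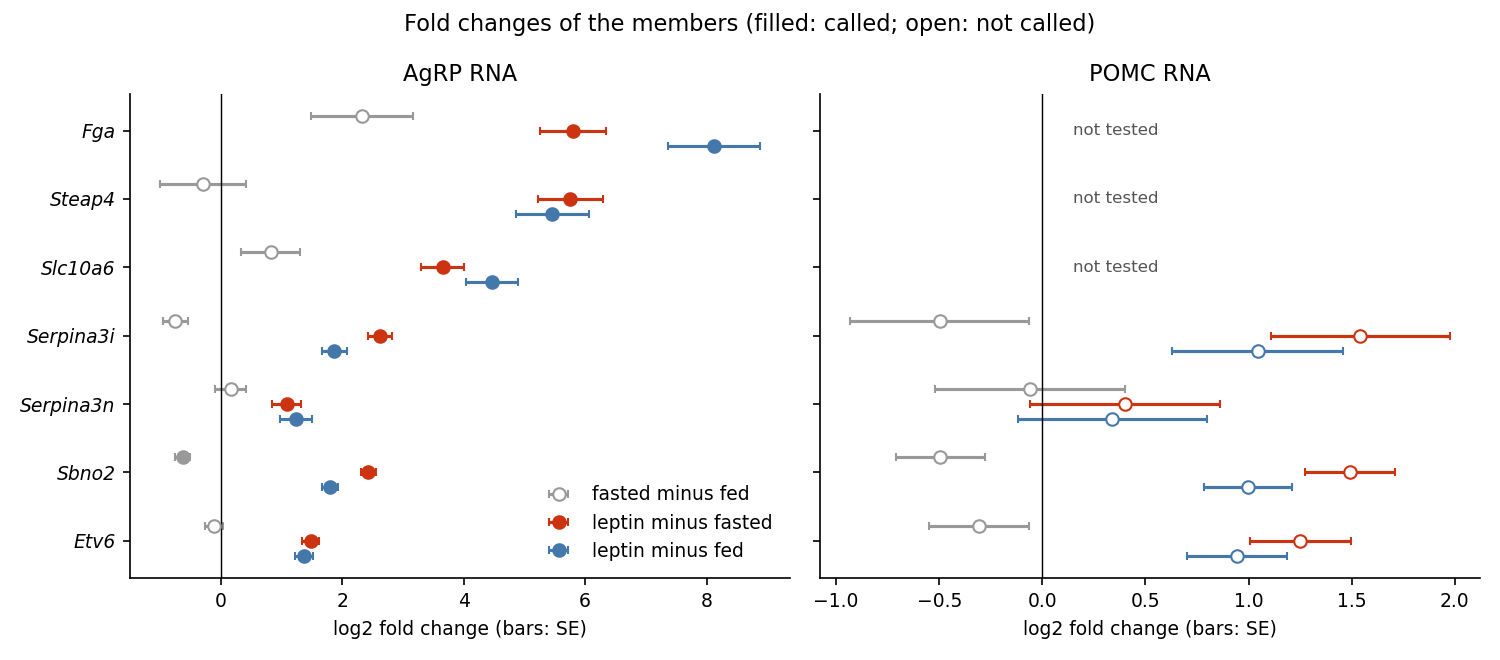
Log2 fold changes with SE of the 7 members in 3 contrasts of AgRP RNA (left) and POMC RNA (right), filled where called. In AgRP neurons both leptin contrasts are to the right of 0 for all 7 members and Sbno2 alone is filled in fasted minus fed (-0.63); in POMC neurons 4 members were tested and none is filled, with Serpina3i at 1.54, Sbno2 at 1.49 and Etv6 at 1.25 in leptin minus fasted.

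POMC neurons, which restrain feeding and also carry the leptin receptor, gave values that did not enter the choice. Sbno2 held 9.13 and 8.57 CPM in fasted, 13.4 and 11.6 CPM in fed and 29.5 and 20.3 CPM in leptin POMC libraries. Etv6 held 10.1 and 15.3 CPM in fasted, 13.7 and 17.7 CPM in fed and 29.5 and 30.8 CPM in leptin libraries. Serpina3i was lower throughout, at 1.38 and 0.976 CPM in fasted, 1.97 and 1.38 CPM in fed and 4.62 and 2.31 CPM in leptin libraries. In all of these genes the leptin libraries lay above all others. Serpina3n did not separate, at 353 and 205 CPM in fasted, 356 and 226 CPM in fed and 503 and 234 CPM in leptin libraries. Fga, Steap4 and Slc10a6 were too low to be tested. Fga had 1 and 0 counts in fasted, 2 and 0 in fed and 13 and 7 in leptin libraries, at most 0.364 CPM.

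With 2 libraries per state none of the 13412 genes tested in POMC neurons was called in any contrast by edgeR without a replicate block (0.0% higher and 0.0% lower), so 0 of the 4 members tested were either. In leptin against fasted, edgeR gave 151 genes an unadjusted p under 0.05 and DESeq2 called 9 higher and 1 lower, among them Sbno2 and Etv6. In leptin against fed, 282 genes had an unadjusted p under 0.05 and DESeq2 called 4 higher and 3 lower, none of them a member. In fasted against fed these figures were 282 genes, 0 and 3, again with no member. The log2 fold changes of leptin against fasted were 1.49 for Sbno2 (FDR 1.00, SE 0.217), 1.25 for Etv6 (FDR 1.00, SE 0.243), 1.54 for Serpina3i (FDR 1.00, SE 0.433) and 0.40 for Serpina3n (FDR 1.00, SE 0.460). Against fed they were 1.00, 0.94, 1.04 and 0.34 in the same order, and in fasted against fed -0.49, -0.31, -0.50 and -0.06, with FDR values of 1.00 throughout.

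For 6 of 7 members, all but Serpina3n, both POMC leptin libraries exceeded both fasted libraries and both fed libraries. Of these, Fga, Steap4 and Slc10a6 did not pass the filter. Among the 4 members tested they were Serpina3i, Sbno2 and Etv6. Over all genes tested, the leptin libraries exceeded the fasted ones for 8.8% and the fed ones for 12.5%. For the genes too low to test, the ratio of summed counts per total count is given with an exact 95% interval that covers counting error only. It was 16.3 for Fga in leptin over fasted (20 against 1 counts, 2.61 to 677), 2.48 for Steap4 (76 against 25, 1.56 to 4.07) and 2.37 for Slc10a6 (29 against 10, 1.12 to 5.45). Over fed it was 12.5 for Fga (20 against 2 counts, 3.03 to 110.0), 2.87 for Steap4 (76 against 33, 1.88 to 4.46) and 3.01 for Slc10a6 (29 against 12, 1.49 to 6.48). Side by side, the fitted log2 changes in AgRP and POMC neurons were 1.48 and 1.25 for Etv6, 2.43 and 1.49 for Sbno2, 2.62 and 1.54 for Serpina3i and 1.08 and 0.40 for Serpina3n. The difference between the neuron types was not tested, and the members were chosen on the AgRP side. POMC libraries also held RNA of AgRP neuron markers, a list that includes Lepr. Their sum was 167 to 229 CPM in fasted and 199 to 214 CPM in leptin POMC libraries. In AgRP leptin libraries it was 2355 to 6700 CPM. The part that RNA of AgRP neurons plays in the members' POMC values was not tested.

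In fed mice, where no leptin was given, Serpina3i was 5.35-fold higher in AgRP than in POMC neurons. Scaled together, the 3 AgRP libraries held 9.38, 11.7 and 6.99 CPM and the 2 POMC libraries 2.07 and 1.45 CPM, a log2 fold change of 2.42 (FDR 0.0135, SE 0.294). It was the only 1 of the 4 members tested to be called higher, against 1.06% of the 13453 genes tested, and none was called lower, against 1.11%. The call was lost without AgRP fed replicate 1 (2.42) or POMC fed replicate 2 (2.18). Serpina3n had a log2 fold change of 0.91 (FDR 0.133, SE 0.225), at 524 to 628 CPM in AgRP and 238 and 373 CPM in POMC libraries, which do not overlap. Sbno2 had 0.73 (FDR 0.148, SE 0.185) with no overlap either, and Etv6 -0.19 (FDR 0.714, SE 0.178) with overlap. DESeq2 called Serpina3i, Serpina3n and Sbno2. With all 3 states in the fit and the state as a covariate, Fga, Serpina3i, Serpina3n, Slc10a6 and Sbno2 were called. That fit includes the leptin libraries that chose the members.

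Chromatin accessibility around the members is independent of the RNA that chose them. Of the 100 peaks within 100 kb, 86 passed the filter, and 2 peaks lay in the windows of both Serpina3i and Serpina3n. In leptin against fasted AgRP nuclei 7 of the 86 were called higher (8.14%, opened) and none lower, against 2.41% and 0.669% of all 102237 peaks tested. The median log2 fold change of the 86 was 0.128, beside -0.0182 over all peaks tested. Peaks of 1 gene share their surroundings, and the windows of Serpina3i and Serpina3n overlap. These counts thus describe 7 windows that are not all separate, and not 86 independent sites. The opened peaks belonged to Slc10a6, Steap4, Serpina3i (3 peaks), Serpina3n and Sbno2, and none of those tested to Fga or Etv6. Of these 7, 3 peaks (Steap4 at -4.8 kb, Serpina3n at -2.7 kb and Serpina3i at -6.5 kb) averaged under 1 CPM over the 4 fed and fasted libraries and passed the filter only through the leptin libraries, so the count is given as a description. With no filter on low counts 9 peaks were opened, among them the same 7, where 2.17% of all peaks were. The additions were a peak 93.0 kb after the Slc10a6 start and a peak 23.9 kb after the Fga start, with 1 and 2 counts in fasted and 20 and 16 in leptin libraries.

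The clearest of them covered the start site of Slc10a6 (chr5:103629042-103629771, 730 bp) and the whole of the promoter printed above. It held 3.23 and 1.01 CPM in fed, 5.86 and 3.30 CPM in fasted and 17.1 and 15.1 CPM in leptin libraries, with both leptin libraries far above the rest. Its log2 fold change of leptin against fasted was 1.81 (FDR 0.00235, SE 0.314) and of leptin against fed 3.12 (FDR 2.23e-05, SE 0.415). It was opened by leptin against fasted under every alternative, each left-out library included. In fasted against fed its log2 fold change was 1.30 (FDR 0.0618, SE 0.510), and it was called higher there without fasted replicate 2 (1.67), without fed replicate 1 (2.15) and with scaling by library size alone (1.36). The promoter inside it held none of the 5 motifs searched.

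Near Steap4 the opened peak lay 4.8 kb before the start (chr5:7955445-7955883, in an intron of the noncoding gene Gm30835). It held 1.74 and 0.865 CPM in fed, 0.382 and 0.498 CPM in fasted and 3.33 and 2.57 CPM in leptin libraries. Its log2 fold change from fasted was 2.70 (SE 0.525). No FDR is given, as it passed the filter only through the leptin libraries. The peak over the Steap4 start and its TTCCCGGAA match went from 1.21 and 0.311 CPM in fasted to 2.22 and 2.01 CPM in leptin libraries. That difference, 1.47 on the log2 scale (SE 0.521), missed the threshold at an FDR of 0.155. The peak over the Fga start (chr3:83025882-83026193) was too low to be tested, with 3 and 6 counts in fed, 9 and 9 in fasted and 34 and 26 in leptin libraries. In a fit with no filter its log2 fold change from fasted was 1.69 (FDR 0.0801, SE 0.517).

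Serpina3i had 3 opened peaks, none of them over an exon or intron. The peak 6.5 kb before its start (chr12:104256409-104256831) held 0.83 and 1.18 CPM in fasted and 2.71 and 3.85 CPM in leptin libraries (log2 fold change 1.72, SE 0.421). It passed the filter only through the leptin libraries, so no FDR is given for it. The peak 7.4 kb after the start (chr12:104270328-104270641), past the end of the gene, held 0.765 and 0.871 CPM in fasted and 3.47 and 5.41 CPM in leptin libraries (2.45, FDR 0.00434, SE 0.464). Its fed libraries, at 2.98 and 1.08 CPM, lay between them. The broad peak 8.7 kb after the start (chr12:104271087-104272461) held 10.9 and 11.8 CPM in fed, 12.7 and 13.9 CPM in fasted and 24.9 and 24.7 CPM in leptin libraries (0.89, FDR 0.0252, SE 0.218). The start site itself was open in every state, at 24.6 to 39.3 CPM, and leptin against fasted gave 0.53 on the log2 scale (FDR 0.15).

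The opened peak of Serpina3n lay 2.7 kb before its start (chr12:104403943-104404082), outside any annotated gene, and was the only opened member peak with a TTCNNNGAA match in its central 200 bases. It held 1.12 and 0.865 CPM in fed, 0.956 and 0.809 CPM in fasted and 4.03 and 3.01 CPM in leptin libraries (log2 fold change 1.97, SE 0.425). This peak too passed the filter only through the leptin libraries, so no FDR is given. The stretch around the match (chr12:104403922-104403990, plus strand) is shown for comparison with the promoter of Serpina3i, whose match has the same 9 letters.
Serpina3n, peak at -2.7 kb: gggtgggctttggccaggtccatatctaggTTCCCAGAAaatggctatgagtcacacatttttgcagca
Among all 102204 peaks whose central 200 bases were read, 8.71% held TTCNNNGAA, and among all 2461 opened peaks 31.2% did, beside 1 of the 7 opened member peaks. TTCCNGGAA was in 1.74% of all and 12.2% of opened peaks and in 0 of those 7, and TGANTCA in 26.5%, 33.8% and 2 of 7 (Serpina3i at 8.7 kb and Serpina3n at -2.7 kb).

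The opened peak of Sbno2 was intronic, 26.5 kb into the gene (chr10:80078991-80079164). It held 1.61 and 1.30 CPM in fed, 1.34 and 1.06 CPM in fasted and 4.79 and 2.57 CPM in leptin libraries, a log2 fold change of 1.57 (FDR 0.0468, SE 0.427). The peak over the promoter of the second stretch (chr10:80102335-80102939) had -0.23 (FDR 0.777), and the promoter of the first stretch, which holds the stricter match, overlapped no peak. At the Etv6 start the peak was open throughout, with 57 and 50.5 CPM in fed, 46.1 and 43.7 CPM in fasted and 40.7 and 52.7 CPM in leptin libraries (0.06, FDR 0.925, SE 0.163). The start-site peak of Serpina3n had 0.34 (FDR 0.493). By the threshold Slc10a6 was thus the only member whose start-site peak was opened by leptin.

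**Figure D3:**
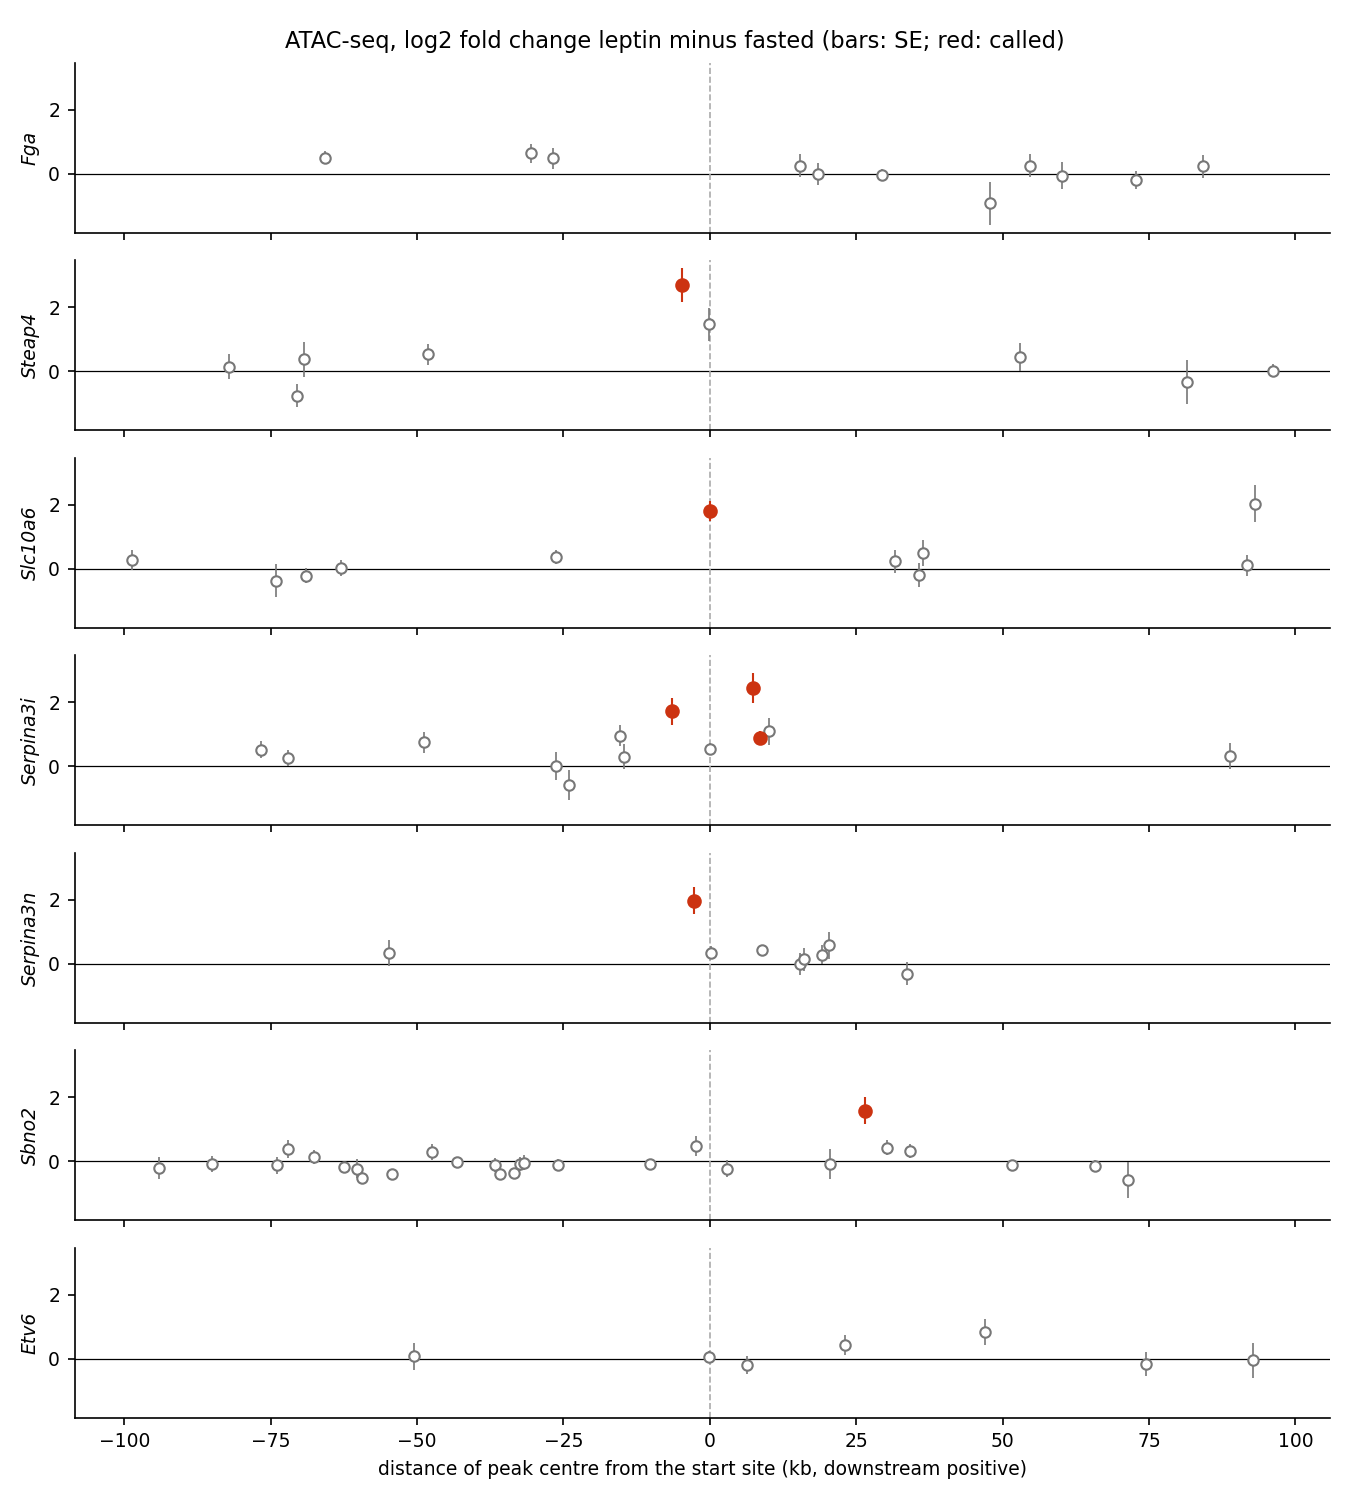
Log2 fold change of leptin against fasted (with SE) of the 86 tested ATAC-seq peaks by distance of their centre from each member's start site in kb, red where opened. The 7 opened peaks lie within 26.5 kb of a start site: at the start of Slc10a6 (1.81), 4.8 kb before Steap4 (2.70), beside Serpina3i (1.72, 2.45 and 0.89), 2.7 kb before Serpina3n (1.97) and within Sbno2 (1.57).

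The count of opened peaks depended on single libraries. Without fasted replicate 1 only the Slc10a6 start peak remained opened (1), where the share of all peaks opened fell to 0.594%. Without leptin replicate 1 the members' count was 2 (0.71% of all peaks), and without leptin replicate 2 it was 4 (0.858%). Without fasted replicate 2 it was 5 (1.73% of all peaks), of which 3 were among the 7. DESeq2 opened 4 of the 7 and 1.4% of all peaks, the 4 being those at Slc10a6, Steap4 and Serpina3i at 7.4 and 8.7 kb. The share over all peaks thus fell with the members' count in each of these fits.

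**Figure D4:**
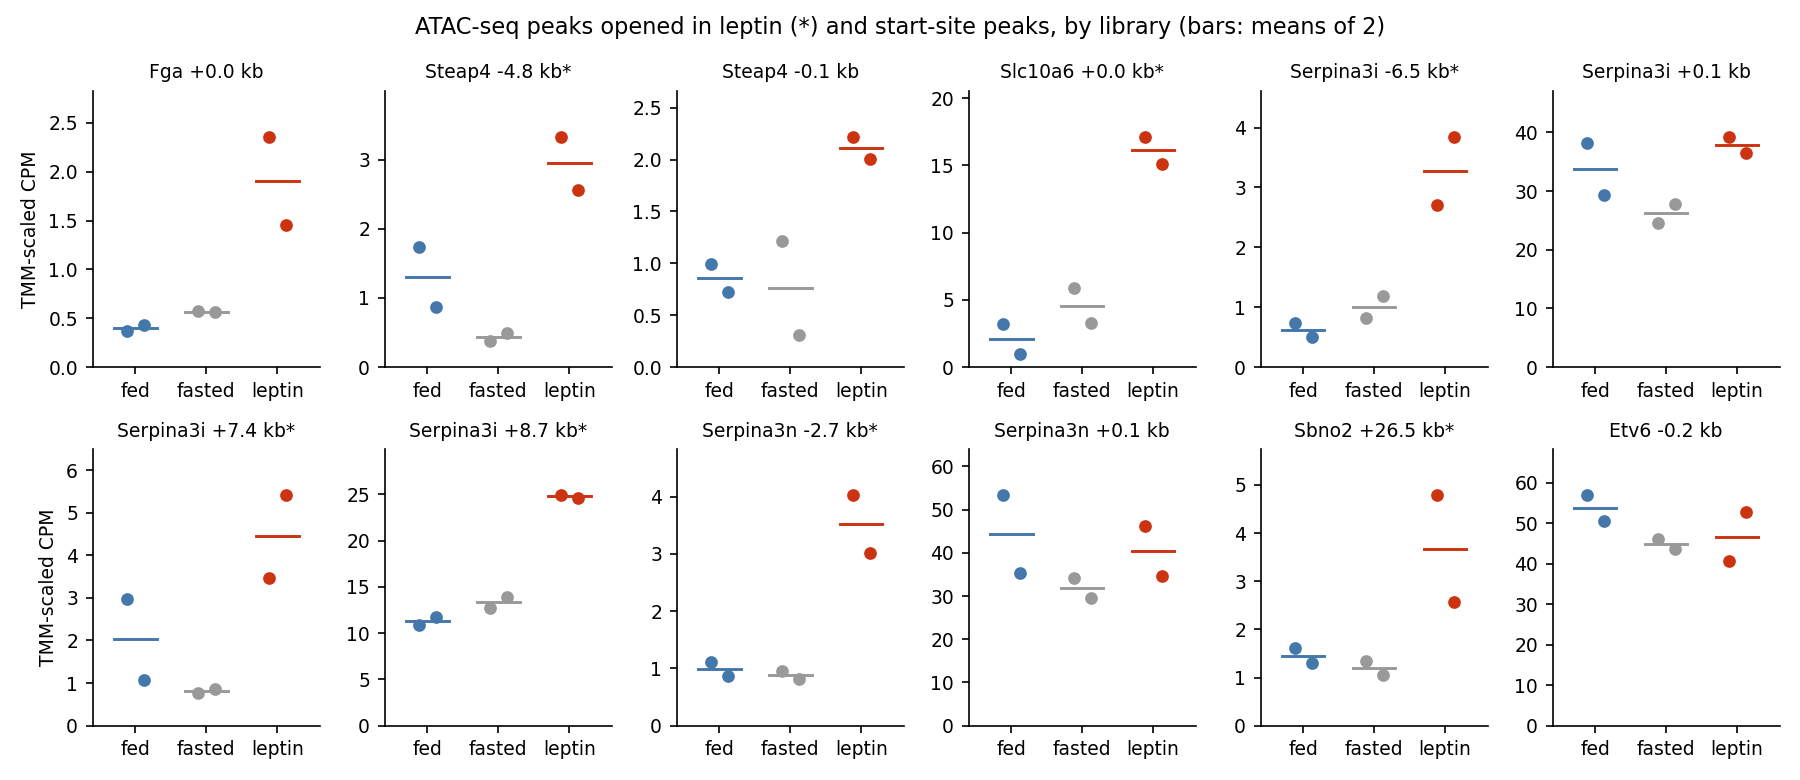
TMM-scaled CPM per ATAC-seq library (2 fed, 2 fasted and 2 leptin, bars at means) of the 7 opened peaks, marked with an asterisk, and of the start-site peaks, each panel titled by gene and distance in kb. In the opened panels both leptin points lie above both fasted points, as at Slc10a6 (17.1 and 15.1 against 5.86 and 3.30 CPM), while the leptin points at the Etv6 start (40.7 and 52.7 CPM) span the fasted ones (46.1 and 43.7 CPM).

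Between fasted and fed nuclei 13 of the 86 peaks were opened (15.1%) and 3 closed (3.49%), against 18.1% and 8.88% of all peaks tested. The largest opening was 15.4 kb after the Serpina3n start (log2 fold change 2.57, FDR 0.00257, SE 0.573), from 0.496 and 0.793 CPM in fed to 4.78 and 3.42 CPM in fasted libraries. The largest closing was 81.6 kb after the Steap4 start (-2.40, FDR 0.00128, SE 0.486), from 2.98 and 3.60 CPM to 0.765 and 0.498 CPM. None of the 7 peaks opened by leptin was called in this contrast by the fit used here, and the Slc10a6 start peak came nearest. In leptin against fed nuclei 29 were opened (33.7%) and 5 closed (5.81%), against 23.3% and 13.4% of all peaks, a contrast that shares its libraries with both others. In fasted against fed nuclei the opened peaks numbered 8 without fasted replicate 1, and the closed ones 1 without fed replicate 1 and 9 without fed replicate 2. In leptin against fed nuclei 18 were opened without fed replicate 2 or without leptin replicate 1.

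Sorted nuclei show where the members' regions are open in AgRP neurons against the other nuclei of the arcuate nucleus. Of 57 peaks in their windows 18 were higher in AgRP-positive nuclei (31.6%) and 7 lower (12.3%), against 23.9% and 15.6% of all 66560 peaks tested. Over all peaks these were 15937 and 10399, and 18223 and 7297 with scaling by library size alone. For Serpina3i 3 of 3 peaks were higher, that at the start with 3.82 and 2.84 CPM in negative and 20.2 and 22.3 CPM in positive libraries (log2 fold change 2.67, FDR 6.65e-21, SE 0.271). The start of Serpina3n was higher too, from 12.1 and 11.5 to 30.02 and 33.1 CPM (1.42, FDR 1.54e-12, SE 0.189). Steap4 had 5 of 6 peaks higher, among them 1 that overlaps the peak opened by leptin at -4.8 kb (1.87, FDR 0.0342, SE 0.755). The other 6 opened peaks overlap no peak of the sorted set. Sbno2 went the other way, with 2 of 22 peaks higher and 5 lower. Without negative replicate 1, or without negative replicate 2, 11 peaks in place of 18 were higher, and without negative replicate 2 the lower ones numbered 3.

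In the IRF3 list of 30387 CUT&RUN peaks, 23 lay within 100 kb of a member. They were 9 near Sbno2, 7 near Fga, 4 near Steap4 and 3 near Serpina3n, with none near Serpina3i, Slc10a6 or Etv6. None overlapped 1 of the 7 opened peaks or covered a member's start. No share over all genes or over all opened peaks stands beside these counts, so nothing is read from them. The nearest lay 5.3 kb after the Steap4 start, in an intron (chr5:7965450-7965971), with a maximum signal of 13, beside a median of 17 over the list. Near Sbno2 and Fga several lay over exons of other genes, namely Stk11, Gpx4, Polr2e, Atp5d and Plrg1. The sample has no replicate, and the list gives its signal without a stated scaling.

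The members' nearest relatives were listed to see whether whole families moved. Of the fibrinogen family, Fgb, the beta chain, rose from 0.297 ± 0.112 to 3.45 ± 1.71 CPM (mean ± SD, n = 4 and 4), or 3.50 on the log2 scale (SE 0.430). Fgl2, a fibrinogen-like protein, rose from 48.6 ± 12.2 to 116 ± 41.9 CPM (1.26, FDR 0.0393, SE 0.274). Fgg, the gamma chain, was too low to be tested, with 6 counts in fed, 6 in fasted and 177 in leptin libraries. In all 2 of the 4 tested relatives of Fga were higher in leptin and none lower, against 1.19% and 0.634% of all genes. Fgl2 and Angptl4 were higher in fasted than fed mice (1.78 and 1.64), where 2.82% of all genes were. All 3 fibrinogen chains were near 0 in fed and fasted libraries. Fgb, like Fga, passed the filter only through its leptin libraries, so no FDR is given for it. Its call is no support for a change of the family.

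In the Serpina3 cluster 3 of the 4 relatives tested rose with leptin, where 1.19% of all genes tested were called higher. They were Serpina3g from 2.93 ± 0.783 to 33.3 ± 17.5 CPM (log2 fold change 3.51, FDR 0.000576, SE 0.366), Serpina3h from 2.16 ± 0.560 to 8.66 ± 3.44 CPM (2.01, FDR 0.00354, SE 0.283) and Serpina3c from 14.98 ± 3.12 to 38.8 ± 15.6 CPM (1.37, FDR 0.0205, SE 0.266). In fed mice 2 of the 3 relatives tested were called higher in AgRP than in POMC neurons, as Serpina3i was, against 1.06% of all genes. Serpina3m had 1.12 (FDR 0.850) in leptin against fasted, and Serpina3a, Serpina3b, Serpina3j and Serpina3k were too low to be tested. As noted, reads shared among these paralogs make each gene's count uncertain.

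The other families were quieter. Steap1 rose from 1.23 ± 0.334 to 4.11 ± 1.50 CPM (1.76 on the log2 scale, FDR 0.00895, SE 0.290), while Steap2 (0.45, FDR 0.0646) and Steap3 (-0.09, FDR 1.00) were not called. Of the relatives of Slc10a6, Sbno2 and Etv6, none was called in leptin against fasted: Slc10a3 had 0.20, Slc10a4 -0.54, Slc10a7 -0.14, Sbno1 0.05, Etv1 0.16, Etv3 -0.01, Etv4 0.12 and Etv5 -0.35. Sbno1 stood at 164 CPM in leptin and 159 CPM in fasted libraries.

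**Figure D5:**
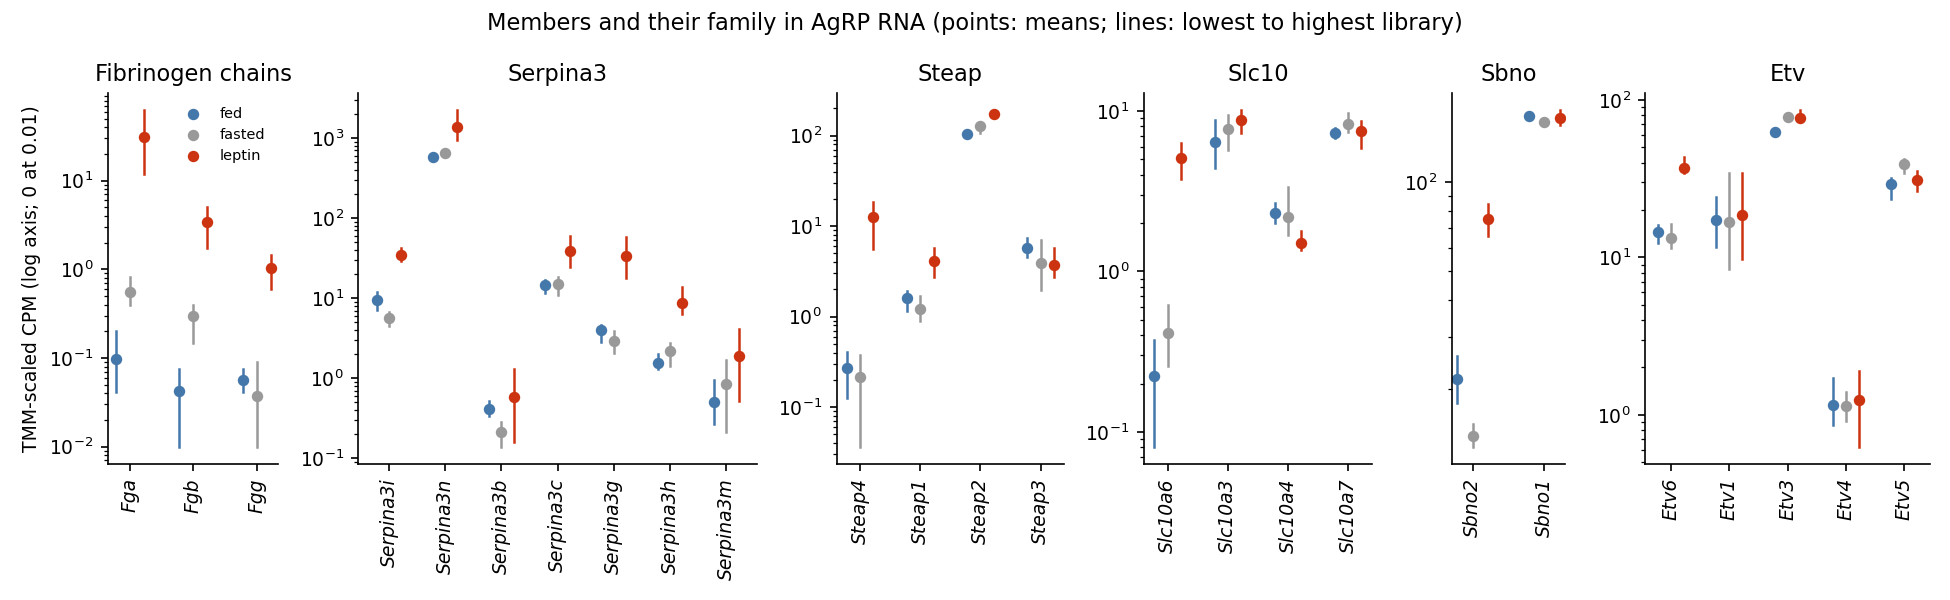
TMM-scaled CPM (log axis, 0 drawn at 0.01) of the members and their gene families in fed, fasted and leptin AgRP libraries, as group means with lines from the lowest to the highest library. Fga (30.7 CPM after leptin), Fgb (3.45 CPM), Serpina3g, Serpina3h, Serpina3c and Steap1 were called higher after leptin, whereas Slc10a3, Slc10a4, Slc10a7, Sbno1 and the tested Etv relatives were not called.

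Most of the liver's acute-phase genes were too low to test or were not called. Of 36 acute-phase genes listed beside the members, 14 were tested and 3 were called higher with leptin. They were Fgb, Cd14, a lipopolysaccharide co-receptor (log2 fold change 2.82, SE 0.559), and A2m, a broad protease inhibitor (1.23, FDR 0.0371, SE 0.264). None fell, and over all genes tested 1.19% were higher and 0.634% lower. Cd14, like Fgb, stood under 1 CPM on average in fed and fasted libraries and passed the filter only through its leptin libraries. The calls of these genes and the count of 3 are thus a description, and no FDR is given for Fgb and Cd14. The list's median log2 fold change was 0.12 beside -0.01 over all genes tested. In fasted against fed mice, where 2.82% of all genes were higher and 1.07% lower, Mt2, a metallothionein, was higher (1.26) and A2m lower (-1.24). Against fed mice Mt2 and its relative Mt1 were higher in leptin (2.23 and 1.85), as were Fgb and Cd14.

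Genes of the gp130 and STAT3 pathway included those that moved with the members. Of 22 tested, 6 were higher and 1 lower in leptin than in fasted libraries (1.19% and 0.634% of all genes), with a list median of 0.26. Socs3, the feedback inhibitor of leptin signaling, rose from 2.36 ± 0.402 to 31.4 ± 5.55 CPM (3.73 on the log2 scale, FDR 3.62e-05, SE 0.250). Socs2 and Socs1, related feedback inhibitors, rose by 1.46 (FDR 0.000546, SE 0.149) and 1.31 (FDR 0.00183, SE 0.168), and Il6ra, the interleukin-6 receptor, fell by 0.65 on the log2 scale (FDR 0.0181, SE 0.123). In fasted against fed mice (2.82% of all genes higher and 1.07% lower) Socs3 (-1.98), Cish (-0.82) and Socs1 (-0.72) were lower and Il6ra (0.74) higher. Socs3 thus had the pattern of Sbno2, below fed in fasted mice and above fed in leptin mice.

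Of 26 known STAT3 target genes tested, 7 were higher and 1 lower with leptin, where 1.19% and 0.634% of all genes were, with a list median of 0.21. Beside Socs3 these included Timp1, an inhibitor of metalloproteinases (2.76, FDR 0.00158, SE 0.344), Bcl3, a coregulator of NF-kappaB (1.29, FDR 0.0262, SE 0.260), and Icam1, an adhesion molecule (1.22, FDR 0.00773, SE 0.196). In fasted against fed mice 5 were higher, led by Nfkbiz (1.97) and Fos (1.35), and 2 lower, beside 2.82% and 1.07% of all genes. Of 8 tested genes known from reactive astrocytes, Timp1 alone was higher with leptin, beside 1.19% of all genes. That list holds no member, so any members that are themselves known from reactive astrocytes are not in the count. The count therefore does not describe such genes as a whole. In POMC neurons no gene of any of these lists was called.

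Across the 11 AgRP libraries the members followed each other closely, which the choice on their leptin rise favours. The correlation of log2(CPM + 1) between members ran from 0.767 for Serpina3n with Etv6 to 0.992 for Serpina3i with Sbno2. The genes most like each member, by the same measure over the 11 libraries, were Thbd, Gpr151 and Rdh10 for Fga (0.990, 0.986 and 0.986) and Gpr151, Cul5 and Rdh10 for Steap4 (0.986, 0.986 and 0.985). For Slc10a6 they were Spop, Rdh10 and AK162138 (0.992, 0.992 and 0.986), and for Serpina3i Sbno2, Sowahc and Fam179a (0.992, 0.979 and 0.979). Serpina3n was close to Serpina3h and Pi4k2a (0.958 and 0.950). Sbno2 was closest to Serpina3i, Fam179a and Socs2 (0.992, 0.985 and 0.983), and Etv6 to Elovl1, Arid5a and Nr3c2 (0.983, 0.981 and 0.980). Rdh10, a retinol dehydrogenase, thus stood among the 3 nearest genes of Fga, Steap4 and Slc10a6, the members that were near 0 before leptin. The libraries share their states, so these values describe a common pattern and carry no test.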

How the data were processed

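Ribosome-bound RNA, open chromatin and IRF3 binding were read from the tables that the authors deposited. The count tables hold whole reads per gene (HISAT2 and featureCounts, on an annotation of GRCm38 modified to limit overlapping transcripts) or per peak (Bowtie2, mm10, MACS2 and bedtools), per the study's methods and the labels. Peaks were merged before reads in them were counted for each library, per the study's reporting summary. The authors' IRF3 peak list gives the total and maximum signal of each peak from SEACR, and it was taken as the IRF3 list because it is the only SEACR list. The kit does not mark strand, so a gene and an antisense partner cannot be told apart. Log2 CPM tables, the whole-arcuate RNA and the other CUT&RUN lists were not analysed here.

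Counts were fitted as deposited with edgeR 4.0.16 (R 4.3.3), TMM normalisation and the quasi-likelihood F test across all features with a mean over 1 CPM, adjusted by Benjamini-Hochberg over all features tested. SE is the fold change divided by the square root of F. DESeq2 1.42.0, scaling by library size alone, no filter, each library left out, the replicate number as a block and windows of 50 and 200 kb were alternatives. The AgRP libraries numbered 4 were left out as a further alternative, chosen after seeing the data. The fits were tested on simulated data with known changes. Tables were made with Python 3.11.15, pandas 2.3.3, numpy 2.4.6 and scipy 1.17.1.

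The members, the 18 gene lists and the tests were chosen with earlier results of these data known. The text names all 7 members, the 3 genes most correlated with each, at most 4 called genes of each list with the largest change in a contrast and the peaks that cover a start site, were called in leptin against fasted or changed most in fasted against fed. A gene near Serpina3n by that correlation is not reported here. Relatives of the members outside that rule are named so that whole families can be seen. Peaks were assigned within 100 kb of a GENCODE vM21 start site.

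In the AgRP RNA samples with the same number deviated together from their group means. Over 10 pairs the correlation of their deviations was 0.534 to 0.812, against a median of -0.237 over 30 pairs of other numbers. The numbers were therefore taken to pair these samples, and the blocked value is given where it changed a call. Each sample pooled 4 arcuate nuclei, and p-values measure the spread between such samples. Intervals cover counting error only. RNA libraries held 25581041 to 54511107 counts and ATAC-seq libraries 8263234 to 17190963.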

Additional observations from a re-analysis of the deposited data

Results flagged for a closer look

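Of the 14 groups of 4 AgRP RNA libraries checked (7 members in fasted and in leptin mice), 1 held a library that stood apart from the others. Serpina3n held 693 CPM in fasted replicate 3, while the other 3 fasted libraries held 621 to 633 CPM. By chance about 1 in 20 such groups is marked, so 1 of 14 is no more than chance may give. In leptin replicate 3, Serpina3n held 2217 CPM, the highest of the 4 leptin libraries.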

How the results depend on the processing

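With no filter on low counts 70 of 70 fold changes kept their direction and their side of the threshold, and 18 of 18 counts stayed within 1.5 times, the peaks opened by leptin going from 7 to 9. DESeq2 gave, in fasted against fed AgRP RNA, 1 member higher and 2 lower, 2 members higher in leptin than fasted POMC RNA, 3 higher in fed AgRP than POMC RNA, 4 peaks opened by leptin and 4 lower in AgRP-positive nuclei. Scaling by library size alone gave 0 members lower in fasted than fed, 2 higher in fed AgRP than POMC RNA and 3 peaks lower in AgRP-positive nuclei. The fit of all 3 states gave 5 members higher in AgRP than POMC RNA and turned Etv6 to 0.0118. Without the AgRP libraries numbered 4, chosen after seeing the data, 2 members were lower in fasted than fed. The causes were not tested.

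With the replicate number as a block, 1 member was higher and 2 were lower in fasted than fed AgRP RNA, and no other call of a member changed there. Over all genes the block called 242 higher and 148 lower in leptin than fasted AgRP RNA, beside 160 and 85, and 590 and 340 in fasted against fed, beside 378 and 143. The POMC and ATAC samples share only 2 numbers. With the block 2 members, Sbno2 and Etv6, were higher in leptin than fasted (FDR 0.00561 and 0.0149) and the same 2 in leptin than fed POMC RNA (FDR 0.0218 and 0.0241), where same-numbered samples correlated at 0.732 to 0.768. Member peaks closed were 7 in fasted against fed and 8 in leptin against fed ATAC-seq, where the correlation was -0.00156 to 0.160, and over all peaks 3937 were opened and 1934 closed by leptin. The Slc10a6 start peak was called higher in fasted than fed nuclei with the block (1.25, FDR 0.0335). For fed AgRP against POMC RNA no paired analysis was possible because the groups share number 1 alone.

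A window of 50 kb gave 4 peaks opened and 1 closed in fasted against fed, 18 and 0 in leptin against fed, and 2 lower in AgRP-positive nuclei. A window of 200 kb gave 11 opened by leptin, 27 and 9 in fasted against fed, 50 and 13 in leptin against fed, and 14 lower in AgRP-positive nuclei. Both follow from the number of peaks taken in.

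With each library left out, members lower in fasted than fed ranged from 0 to 2, members higher in fed AgRP than POMC RNA from 0 to 1, peaks opened by leptin from 1 to 5, peaks opened and closed in fasted against fed from 8 to 12 and 1 to 9, peaks opened in leptin against fed from 18 to 23, and peaks higher and lower in AgRP-positive nuclei from 11 to 17 and 3 to 7. Fold changes that were not called turned sign in some of these fits. In RNA, Steap4 in fasted against fed ranged from -0.75 to 0.0928 and Etv6 in fed AgRP against POMC from -0.36 to 0.0110. Serpina3n in POMC neurons ranged from -0.51 to 0.30 in fasted against fed, -0.26 to 0.86 in leptin against fasted and -0.32 to 0.79 in leptin against fed. In ATAC-seq, the Steap4 start peak ranged from -1.37 to 0.56 and the Serpina3n peak at -2.7 kb from -0.35 to 0.00594 in fasted against fed, the Etv6 start peak from -0.13 to 0.24 in leptin against fasted, and the start peaks of Serpina3i from -0.0281 to 0.34 and of Serpina3n from -0.42 to 0.16 in leptin against fed. Where a library left out leaves 1 sample in a group, that sample is assumed to vary like the other groups.

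Over all features, the fit of all 3 states called 871 genes higher and 967 lower in AgRP than POMC RNA and DESeq2 326 and 329, beside 143 and 149. DESeq2 opened 1436 and closed 347 peaks by leptin, beside 2461 and 684. Depth limits Fga, Steap4 and Slc10a6 outside the AgRP leptin libraries, where they had 0 to 48 counts per library.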
